A study of Mus musculus with 8 samples.

Results

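The conjugating (phase II) enzymes of mouse liver were taken as all protein-coding genes of the table whose symbols belong to the Ugt1a, Ugt2a, Ugt2b or Ugt3a genes, the Gsta, Gstk, Gstm, Gsto, Gstp, Gstt or Gstz genes, or any numbered Sult gene. The choice used symbols only and no measured value. It gave 60 of 27110 genes in the table, or 60 of the 16730 protein-coding ones. These were 22 glutathione transferases, 19 sulfotransferases and 19 UDP-glucuronosyltransferases. Enough reads for a test were present for 55 members (21, 16 and 18 in that order). The members left untested were Gstt4, Sult2b1, Sult4a1, Sult6b1 and Ugt1a8.

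Phase II enzymes attach a water-soluble group to drugs, pigments, steroids and bile acids, often after a cytochrome P450 has added an oxygen, so that the product can leave in bile or urine. UDP-glucuronosyltransferases sit in the endoplasmic reticulum and transfer glucuronic acid from UDP-glucuronic acid, and among them Ugt1a1 conjugates bilirubin. Cytosolic glutathione transferases couple glutathione to reactive electrophiles, and cytosolic sulfotransferases move sulfate from the donor PAPS onto phenols, amines, hydroxysteroids and bile acids. Hepatocytes hold most of the liver's conjugating capacity, and several of these genes are known to differ between male and female mice.

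The livers were collected at week 7 from untreated mice (labelled NT) and gave 1 RNA-seq library each. The Fl/Fl group, labelled as control, has 3 female libraries (replicates 5, 7 and 9) and 1 male library (replicate 10). The LKO group, in which the title gives a liver-restricted deletion of Pkd1l1, has 4 female libraries (replicates 3, 4, 12 and 13). The labels give no strain, and which promoter and cell type drive the deletion was not stated in them. The genotype comparison therefore sets 4 LKO against 3 Fl/Fl livers, all female, and the male library enters the same fit with its own sex term.

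The libraries held 71491723 to 76622375 counted reads, and 3 reads in a library were worth 0.0385 to 0.0428 CPM (read counts scaled to library size), a floor that covers counting error only. Pkd1l1 itself had 0, 1, 1 and 0 reads in Fl/Fl 5, 7, 9 and 10 and 0, 0, 0 and 2 reads in LKO 3, 4, 12 and 13, so its loss was not detectable at this depth and it cannot check the labels. The tissue label names hepatocytes and cholangiocytes. Albumin measured 96159.8 to 109283 CPM over the 7 female libraries, and the 8 cholangiocyte markers together 41.3 to 54.2 CPM in LKO and 50.2 to 59.4 CPM in female Fl/Fl. In bulk liver, fewer cells of a type and less RNA per cell cannot be told apart.

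A few members carried most of each class. Levels between genes were compared as FPKM, the authors' reads scaled to gene length and library size, as mean ± SD over the 7 female libraries. Gstm1, a mu-class enzyme, was the most abundant glutathione transferase at 1006 ± 149 FPKM and held 41.0% of the summed FPKM of its class. Gstp1 (pi class) at 291 ± 30.1 FPKM and Gsta3 (alpha class) at 291 ± 67.4 FPKM came next and did not differ beyond their spread. Gstt1, a theta-class enzyme that acts on small halogenated compounds, stood at 183 ± 21.7 FPKM, and Gstz1, the maleylacetoacetate isomerase of tyrosine breakdown, at 120.1 ± 13.4 FPKM.

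Among the UDP-glucuronosyltransferases the Ugt2b genes led. Ugt2b5, a steroid-conjugating enzyme, measured 385 ± 51.3 FPKM, or 26.0% of its class, and Ugt2b36 286 ± 25.2 FPKM. Ugt2b1 at 165 ± 30.8 FPKM, Ugt2a3 at 145 ± 22.2 FPKM and Ugt3a2 at 141 ± 7.95 FPKM overlapped within their spread. Ugt3a2 belongs to a family that uses other sugars in place of glucuronic acid. The bilirubin enzyme Ugt1a1 stood lower, at 47.5 ± 4.15 FPKM. Of its exonic bases 82.7% lie in exons of other genes, and how reads there were counted is not given. The levels of Ugt1a genes beside the others, and the shares within this class, are therefore uncertain.

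Sulfotransferase RNA was the most concentrated in a few genes, with the top 5 members holding 90.4% of the class against 77.3% for glutathione transferases and 75.8% for UDP-glucuronosyltransferases. Sult1a1, the main phenol sulfotransferase, measured 299.8 ± 55.3 FPKM and Sult2a8, a hydroxysteroid and bile acid sulfotransferase, 232 ± 47.1 FPKM. Sult2a2 at 93.7 ± 80.2 FPKM and Sult1d1 at 92.0 ± 25.9 FPKM overlapped, and Sult2a1 had an SD larger than its mean, 51.7 ± 68.0 FPKM.

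**Figure D1:**
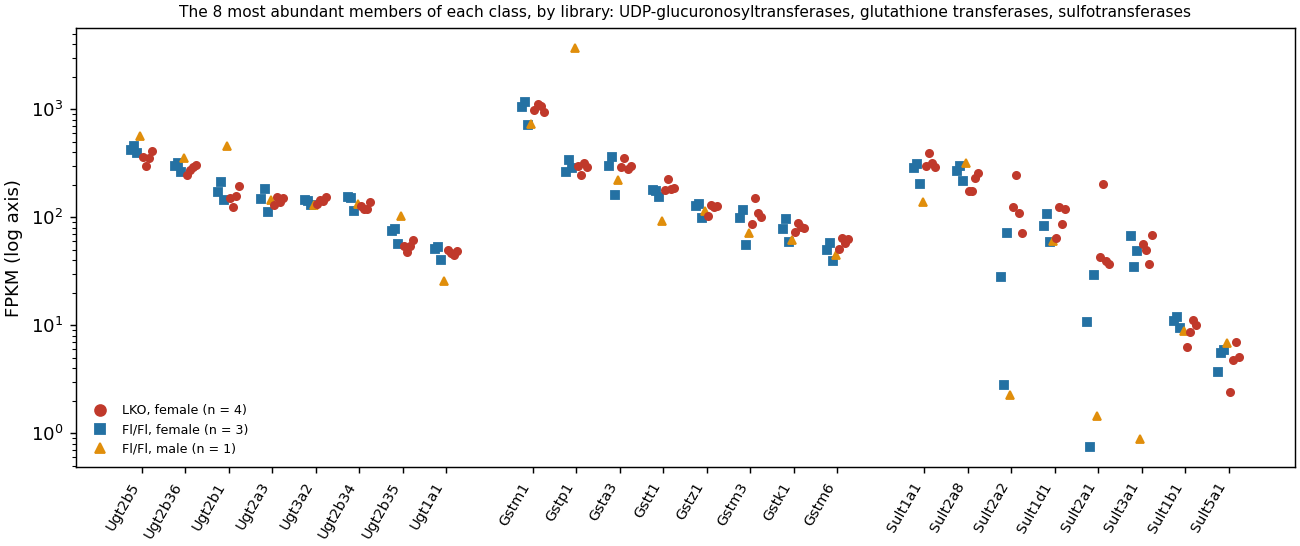
Deposited FPKM (log axis) of the 8 most abundant members of each class, 1 point per library, with circles for LKO, squares for female Fl/Fl and triangles for the male Fl/Fl library. Most members lie within a narrow band over the female libraries, while Sult2a1 and Sult2a2 spread widely and Gstp1 is far higher in the male library.

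The first question was whether loss of Pkd1l1 in the liver came with a change in conjugating enzymes. In edgeR's quasi-likelihood test no member was past an adjusted p of 0.05 in either direction, 0 of 55, where 1.02% of all 16420 tested genes were higher and 0.396% lower in LKO. At an unadjusted p under 0.05 there were 7 members, against 16.1% of all tested genes. Of these, 6 had higher values in LKO (Ugt1a6a, Gsta1, Gsto1, Gstm2, Sult3a2 and Sult2a3) and 1 lower (Ugt2b35). The smallest adjusted p was 0.161, for Ugt1a6a. DESeq2 called 0 of 53 members with an adjusted p, limma voom 0 of 55, and limma trend on log2(FPKM + 1) 0 of 55, with 8, 9 and 8 at an unadjusted p under 0.05.

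The abundant members were measured closely enough to bound a difference. Of 37 members with a mean of at least 10 CPM, 33 had a 95% interval of the LKO difference that lay within 1 on the log2 scale of 0, and 17 had one within 0.5. The exceptions at the wider bound were Gsta2, Gstm3, Sult2a1 and Sult2a2. Summed over each class, glutathione transferases held 2339.6 ± 502 FPKM in female Fl/Fl and 2534 ± 174 FPKM in LKO, sulfotransferases 734 ± 73.0 FPKM in female Fl/Fl and 934 ± 202 FPKM in LKO, and UDP-glucuronosyltransferases 1547 ± 173 FPKM in female Fl/Fl and 1427 ± 109.9 FPKM in LKO.

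**Figure D2:**
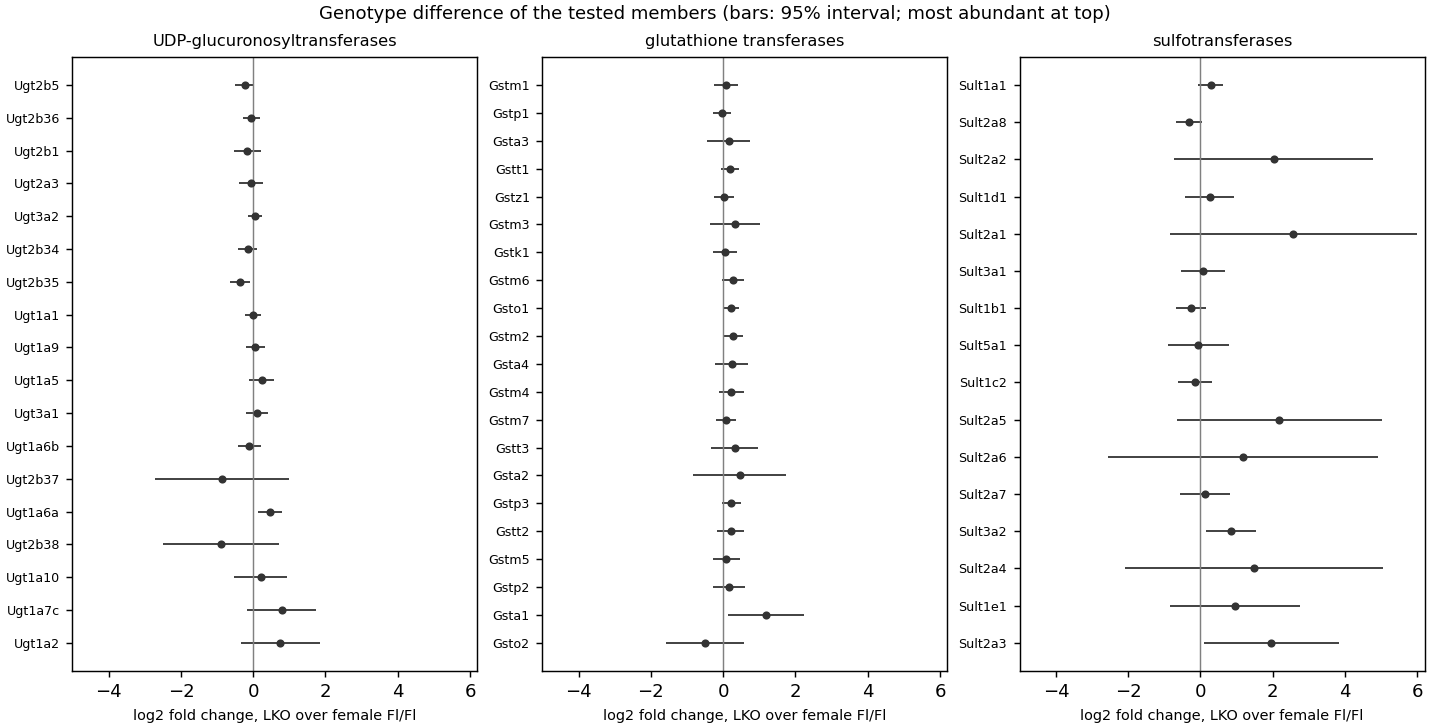
Fitted log2 fold change of LKO over female Fl/Fl for each tested member (points) with its 95% interval (bars), by class and ordered by FPKM with the most abundant at the top. Intervals are short for most abundant members and long for Sult2a1 to Sult2a6, Sult1e1, Ugt2b37, Ugt2b38 and Gsta2.

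Glutathione transferases leaned to higher values in LKO, and none passed the test. The fitted difference was above 0 in 19 of 21 tested members, with a median of 0.21 on the log2 scale against -0.0032 over all genes tested. Gsta1, an alpha-class enzyme of low level in these livers (ENSMUSG00000074183, chromosome 9, 78230656 to 78242684), measured 0.414, 1.12 and 0.248 CPM in Fl/Fl 5, 7 and 9 and 1.49, 0.884, 1.75 and 1.26 CPM in LKO 3, 4, 12 and 13. All 4 LKO values were above Fl/Fl 5 and 9, but Fl/Fl 7 lay within them (log2 1.18 ± 0.47, adjusted p = 0.256). Of the 50-base words of Gsta1 transcripts, 90.5% also occur in another gene, mostly Gm3776, so its reads are uncertain.

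Gsto1, an omega-class enzyme that reduces dehydroascorbate and methylated arsenic, measured 85.3, 98.5 and 83.4 CPM in Fl/Fl 5, 7 and 9 and 105, 107, 109 and 95.1 CPM in LKO 3, 4, 12 and 13. Only LKO 13 was below the highest Fl/Fl value, that of Fl/Fl 7 (log2 0.22 ± 0.092, adjusted p = 0.264). Gstm2, a mu-class enzyme, measured 75.8, 73.9 and 54.4 CPM in Fl/Fl 5, 7 and 9 and 85.7, 89.8, 75.4 and 78.8 CPM in LKO 3, 4, 12 and 13, and the groups met at Fl/Fl 5 and LKO 12 (log2 0.28 ± 0.12, adjusted p = 0.301).

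The 5 most abundant glutathione transferases gave small fitted differences. They were 0.082 ± 0.16 for Gstm1, -0.031 ± 0.12 for Gstp1, 0.15 ± 0.26 for Gsta3, 0.19 ± 0.11 for Gstt1 and 0.029 ± 0.13 for Gstz1 (log2 ± SE), with adjusted p-values of 0.418 to 0.942. Summed by subfamily, the Gsto genes (log2 0.22 ± 0.092, adjusted p = 0.265) and the Gstt genes (log2 0.23 ± 0.12, adjusted p = 0.397) came with the smallest p, and neither passed.

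The size of this lean depended on single libraries, while the class median stayed above 0 with each one left out. Fl/Fl 9 was the lowest of the 7 female libraries in 16 of 21 glutathione transferases and in 29 of all 55 members, where it was lowest in 17.1% of all tested genes. Gsta3 shows the pattern, with 1240.4, 1534 and 662 CPM in Fl/Fl 5, 7 and 9 and 1208, 1486, 1167 and 1238 CPM in LKO 3, 4, 12 and 13. Fl/Fl 9 stood below all the others there, and Fl/Fl 7 was the highest. Gsta2, another alpha-class enzyme, measured 24.6, 36.1 and 7.37 CPM in Fl/Fl 5, 7 and 9 and 25.5, 35.4, 37.8 and 26.3 CPM in LKO 3, 4, 12 and 13. Fl/Fl 9 was again the only low female library, and the male one was low too, at 9.20 CPM.

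Without Fl/Fl 9 the median difference of glutathione transferases was 0.060, without LKO 4 it was 0.13, and without Fl/Fl 5 and 7 it was 0.49. In the last fit, which keeps 1 female Fl/Fl library and assumes that it varies like the others, Gsta2 passed as higher in LKO (log2 2.07, adjusted p = 0.0405). Among the controls the clock gene Arntl also set Fl/Fl 9 apart, at 39.7, 29.5 and 8.52 CPM in Fl/Fl 5, 7 and 9 and 30.3, 26.6, 5.32 and 8.31 CPM in LKO 3, 4, 12 and 13. The immediate early gene Fos was high in Fl/Fl 5 and 7, at 298, 264 and 30.7 CPM in Fl/Fl 5, 7 and 9 and 12.7, 7.64, 6.76 and 4.87 CPM in LKO. The part of either in the members' values was not tested.

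**Figure D3:**
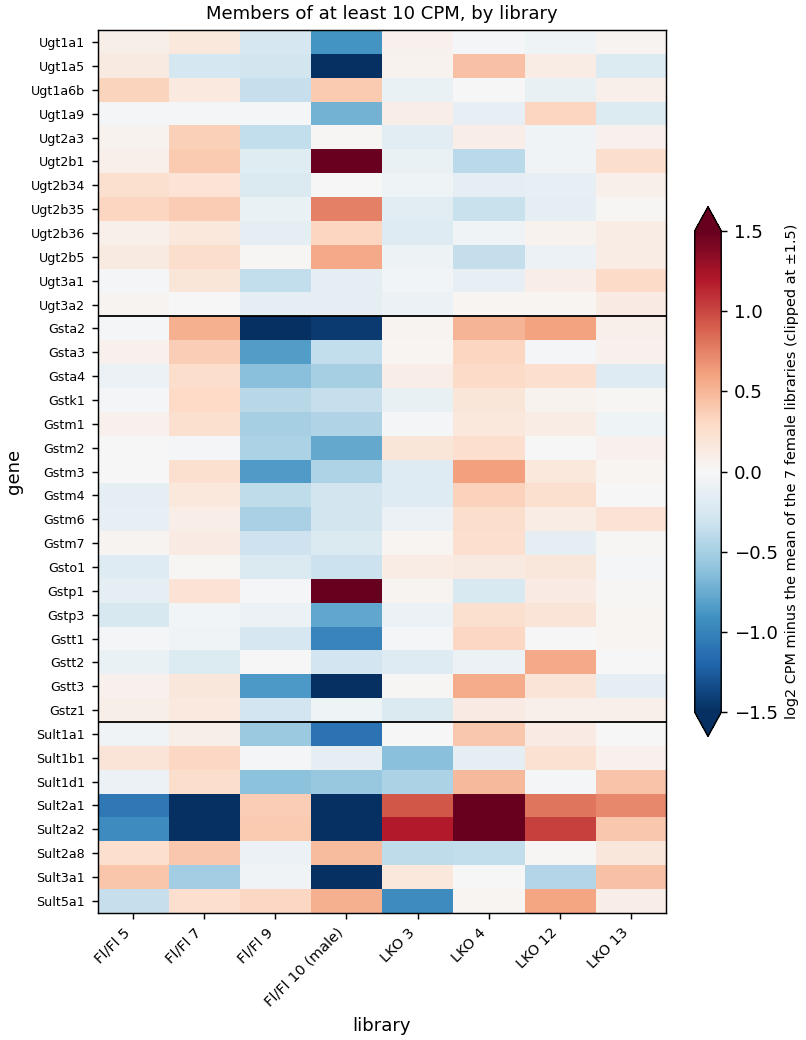
log2 CPM of the 37 members of at least 10 CPM in each library, minus the gene's mean over the 7 female libraries (red higher, blue lower, clipped at 1.5), with UDP-glucuronosyltransferases, glutathione transferases and sulfotransferases from top to bottom. The glutathione transferase block is mostly blue in Fl/Fl 9 and in the male library, and Sult2a1 and Sult2a2 are red in Fl/Fl 9 and LKO and blue in Fl/Fl 5, Fl/Fl 7 and the male library.

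The 5 largest fitted differences among members belonged to genes of the Sult2a cluster on chromosome 7, whose products sulfate hydroxysteroids and bile acids, and none passed the test. The median of all sulfotransferases was 0.57 on the log2 scale, with 12 of 16 tested members above 0, and it was 0.29 without Fl/Fl 9 and 0.36 without LKO 4. Sult2a1 (ENSMUSG00000078798, chromosome 7, 13796246 to 13837409) measured 10.5, 0.731 and 28.6 CPM in Fl/Fl 5, 7 and 9 and 42.2, 199, 38.8 and 36.5 CPM in LKO 3, 4, 12 and 13, and 1.40 CPM in the male library. Sult2a2 (ENSMUSG00000070811, chromosome 7, 13733505 to 13779636) measured 20.02, 2.01 and 50.5 CPM in Fl/Fl 5, 7 and 9 and 88.4, 177, 78.7 and 51.1 CPM in LKO 3, 4, 12 and 13, and 1.60 CPM in the male library. Every LKO value was above every female Fl/Fl value for both genes, yet the controls lay far apart: Sult2a1 had 57 reads in Fl/Fl 7 and 2194 in Fl/Fl 9. The fitted differences were 2.57 ± 1.35 for Sult2a1 (adjusted p = 0.430) and 2.03 ± 1.09 for Sult2a2 (adjusted p = 0.439).

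The rarer genes of the cluster followed a like order of libraries in part. Sult2a5 measured 1.43, 0.0128 and 1.42 CPM in Fl/Fl 5, 7 and 9 and 1.80, 9.31, 4.12 and 2.12 CPM in LKO 3, 4, 12 and 13, again without overlap (log2 2.18 ± 1.15, adjusted p = 0.420). Sult2a3 measured 0.174, 0.0898 and 0.313 CPM in Fl/Fl 5, 7 and 9 and 0.184, 1.89, 0.615 and 0.329 CPM in LKO 3, 4, 12 and 13, with Fl/Fl 9 above LKO 3 (log2 1.96 ± 0.82, adjusted p = 0.286). Sult2a4 and Sult2a6 broke the pattern in LKO 3, where both had 0 reads. Sult2a6 measured 1.80, 0.103 and 1.62 CPM in female Fl/Fl and 0, 5.64, 3.27 and 1.66 CPM in LKO, and Sult2a4 0.347, 0 and 0.561 CPM in female Fl/Fl and 0, 1.88, 1.00 and 0.4997 CPM in LKO, in the same order of replicates. LKO 4 was the highest library for all of Sult2a1 to Sult2a6. Of the 50-base words of Sult2a5, 34.5% also occur in another gene, mostly Sult2a2, and of those of Sult2a4 25.5%, mostly in Sult2a5. For Sult2a3 and Sult2a6 the shares were 8.36% and 6.63%. How many reads of the rarer genes came from the abundant ones was not tested, so their order is not separate evidence.

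Sult2a7 and Sult2a8, the most abundant member of the cluster, did not share this order. Sult2a7 measured 2.35, 3.42 and 1.57 CPM in Fl/Fl 5, 7 and 9 and 1.84, 2.02, 3.42 and 3.39 CPM in LKO 3, 4, 12 and 13. Fl/Fl 9 was its lowest female library, and Fl/Fl 7 was level with LKO 12 and 13 at the top (log2 0.13 ± 0.31, adjusted p = 0.893). Sult2a8 measured 855, 952 and 679.6 CPM in Fl/Fl 5, 7 and 9 and 554, 555, 729.6 and 809 CPM in LKO 3, 4, 12 and 13. LKO 3 and 4 were the lowest, and LKO 12 and 13 lay among the controls (log2 -0.32 ± 0.16, adjusted p = 0.361). Because Sult2a8 dominates, the summed reads of the 8 Sult2a genes gave a difference near 0 (log2 -0.034 ± 0.13, adjusted p = 0.931). Sult2a1 and Sult2a2 share sequence, with 33.2% and 62.1% of their 50-base words also found in another gene, so the split of reads between them is uncertain.

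**Figure D4:**
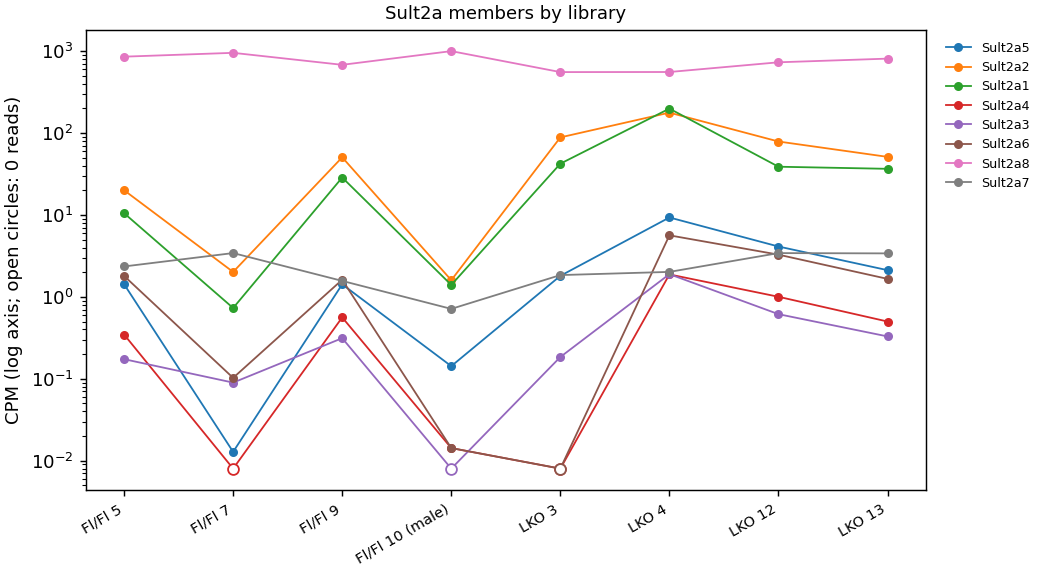
CPM (log axis) of the 8 Sult2a genes in each library, with lines joining a gene's values and open circles for 0 reads. Sult2a1 and Sult2a2 dip in Fl/Fl 7 and in the male library and peak in LKO 4, while Sult2a8 stays between 554 and 999 CPM.

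Promoters of 4 of these genes are shown because their RNA varied together over most libraries, though Sult2a4 and Sult2a6 departed in LKO 3. No RefSeq promoter was matched for Sult2a1 and Sult2a2, so the 2 genes with the largest share of these reads are missing. Each line gives the 250 bases before the RefSeq start (GRCm38.p6), 5′ to 3′ on the gene's strand, and capitals mark the letters GTTAAT or their reverse complement ATTAAC, the site for one subunit of the hepatocyte factor HNF1.
Sult2a3 chr7:14123049-14123298 (-): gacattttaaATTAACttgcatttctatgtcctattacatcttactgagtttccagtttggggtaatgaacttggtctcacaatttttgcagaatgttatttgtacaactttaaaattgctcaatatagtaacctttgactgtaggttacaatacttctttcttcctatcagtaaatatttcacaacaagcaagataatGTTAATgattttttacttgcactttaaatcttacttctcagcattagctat
Sult2a4 chr7:13989589-13989838 (-): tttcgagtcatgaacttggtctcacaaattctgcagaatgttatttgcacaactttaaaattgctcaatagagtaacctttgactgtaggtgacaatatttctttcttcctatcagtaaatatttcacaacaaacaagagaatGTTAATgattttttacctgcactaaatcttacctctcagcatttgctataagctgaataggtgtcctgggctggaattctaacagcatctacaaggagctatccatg
Sult2a5 chr7:13623717-13623966 (+): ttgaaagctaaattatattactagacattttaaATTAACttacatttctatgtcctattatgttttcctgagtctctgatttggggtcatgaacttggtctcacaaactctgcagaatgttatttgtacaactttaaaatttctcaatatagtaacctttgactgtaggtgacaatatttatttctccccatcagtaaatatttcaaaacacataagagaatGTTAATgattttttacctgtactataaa
Sult2a6 chr7:14254871-14255120 (-): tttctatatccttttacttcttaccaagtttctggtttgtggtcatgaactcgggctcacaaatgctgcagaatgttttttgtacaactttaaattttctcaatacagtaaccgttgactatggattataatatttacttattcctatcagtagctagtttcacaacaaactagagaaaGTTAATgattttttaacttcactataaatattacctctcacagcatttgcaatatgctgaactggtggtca
All 4 promoters hold the HNF1 letters, Sult2a3 at 240 and 51 and Sult2a5 at 217 and 28 bases before the start. Sult2a4 holds them at 107 and Sult2a6 at 71. Whether these letters bear on the order of libraries was not tested. In a global alignment Sult2a3 and Sult2a5 were identical at 73.3% of columns, with a longest shared run of 31 bases, and Sult2a4 and Sult2a5 at 48.9%.

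RefSeq promoters were matched by symbol for 52 of the 60 members (63 promoters) and searched on both strands beside all 32851 promoters of the same length. The HNF1 letters stood in 22.2% of member promoters and 6.43% of all, and by class in 7 of 18 for sulfotransferases, 6 of 17 for UDP-glucuronosyltransferases and 1 of 28 for glutathione transferases. The aryl hydrocarbon receptor core GCGTG stood in 17.5% of member promoters and 28.2% of all, and the nuclear receptor element AGGTCA in 17.5% and 14.0%. The antioxidant response core TGACNNNGC stood in 4.76% and 10.2%, the E-box CACGTG in 0 of 63 and 6.02%, and the D-box TTANGTAA in 4.76% and 2.06%. TTCNNNGAA, the letters read by STAT5, stood in 6.35% and 7.02%. Matches may overlap in part, as those of AGGTCA and TGACNNNGC can. Promoters of paralogs resemble each other, as those of Sult2a3 to Sult2a6 do, so their matches are not separate counts. A match describes the letters in this window and is not a site.

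The other sulfotransferases showed no difference past the threshold. Sult3a2, an N-sulfotransferase gene (ENSMUSG00000090298, chromosome 10, 33766424 to 33786704), measured 0.654, 0.615 and 0.626 CPM in Fl/Fl 5, 7 and 9 and 1.16, 1.09, 0.735 and 1.56 CPM in LKO 3, 4, 12 and 13. Every LKO value was above every Fl/Fl value, at 55 to 119 reads against 48 to 49 (log2 0.85 ± 0.31, adjusted p = 0.211). Sult1a1, whose subfamily has no other member here, measured 415, 455 and 292 CPM in Fl/Fl 5, 7 and 9 and 429, 566, 466 and 425 CPM in LKO 3, 4, 12 and 13. Fl/Fl 9 was the lowest and LKO 4 the highest, and the other 5 libraries overlapped (log2 0.28 ± 0.16, adjusted p = 0.411). Sult1d1, which acts on catecholamines, gave log2 0.25 ± 0.29, and Sult1e1, the estrogen sulfotransferase, was rare, at 0.0783 to 1.13 CPM.

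UDP-glucuronosyltransferases were centred near 0 as a class, with a median of -0.029 on the log2 scale, 8 members above 0 and 10 below. The median was 0.031 without Fl/Fl 5 and 0.056 without Fl/Fl 7. The signs split by locus. All 7 tested Ugt2b genes had fitted values below 0, from -0.88 to -0.051, and 6 of 8 tested Ugt1a genes had values above 0. Of all 16420 tested genes, 8122 were above 0 and 8298 below. Some signs depended on single libraries. Without Fl/Fl 7 Ugt2b36 was 0.0060, and without Fl/Fl 5 and 7 Ugt2b36 was 0.11 and Ugt2b1 0.12. Ugt1a2, Ugt1a7c and Ugt1a10, all among those above 0, were rare. No member of either locus passed the test, nor did the summed reads of Ugt2b (log2 -0.18 ± 0.12, adjusted p = 0.512) or Ugt1a (log2 0.071 ± 0.094, adjusted p = 0.771).

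Ugt1a6a, which conjugates planar phenols (ENSMUSG00000054545, chromosome 1, 88134809 to 88218997), measured 8.36, 7.48 and 6.80 CPM in Fl/Fl 5, 7 and 9 and 10.5, 8.31, 10.5 and 12.4 CPM in LKO 3, 4, 12 and 13. LKO 4 lay just below Fl/Fl 5, and the other 3 LKO values were above all controls (log2 0.47 ± 0.15, adjusted p = 0.161). The Ugt1a genes have their own first exon and share their last exons, and for all 9 of them over 50% of exonic bases lie in exons of other genes, so how reads were assigned among them bears on each value. Ugt1a1 measured 108, 113 and 85.2 CPM in Fl/Fl 5, 7 and 9 and 106, 99.2, 96.9 and 104 CPM in LKO 3, 4, 12 and 13, with the groups overlapping (log2 -0.0068 ± 0.10, adjusted p = 0.983). Its 95% interval was -0.24 to 0.22.

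Ugt2b35 (ENSMUSG00000035811, chromosome 5, 87000860 to 87013275) measured 243, 255 and 183 CPM in Fl/Fl 5, 7 and 9 and 176, 155, 178 and 198 CPM in LKO 3, 4, 12 and 13. LKO values were below Fl/Fl 5 and 7, while Fl/Fl 9 lay among them (log2 -0.36 ± 0.13, adjusted p = 0.189). It passed as lower without Fl/Fl 9 (log2 -0.50, adjusted p = 0.0234), and in no other fit. Ugt2b5 measured 748, 820.1 and 694 CPM in Fl/Fl 5, 7 and 9 and 648, 534, 643 and 736 CPM in LKO 3, 4, 12 and 13, with LKO 13 inside the control range (log2 -0.24 ± 0.12, adjusted p = 0.355). Ugt2b36 (-0.051 ± 0.11), Ugt2b1 (-0.17 ± 0.17), Ugt2a3 (-0.054 ± 0.15) and Ugt3a2 (0.054 ± 0.090) had adjusted p-values of 0.683 to 0.905. Ugt2b37, singled out after its values were seen, measured 29.8 CPM in Fl/Fl 9 and 3.48 to 9.59 CPM in the other 7 libraries.

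Across the 3 classes, every LKO library was above every female Fl/Fl library in 6 of 55 members (Sult2a1, Sult2a2, Sult2a5, Sult3a2, Ugt1a2 and Ugt1a7c), beside 8.85% of all tested genes. The reverse held for 0 of 55, beside 6.22%. Ugt1a2 (0.227, 0.218 and 0.0783 CPM in female Fl/Fl and 0.395, 0.235, 0.254 and 0.289 CPM in LKO) and Ugt1a7c (0.454, 0.308 and 0.404 CPM in female Fl/Fl and 0.553, 0.456, 1.23 and 0.460 CPM in LKO) were both rare. Of the untested genes, Ugt1a8 had 9, 10, 21 and 9 reads in LKO 3, 4, 12 and 13 and 0, 2 and 2 in Fl/Fl 5, 7 and 9. Fitted without a filter on low counts it gave log2 3.12 ± 1.06 (adjusted p = 0.156). In the authors' deposited comparison with all Fl/Fl libraries its log2 fold change was 3.30, with an unadjusted p of 0.00067 (test not stated). The adjusted p of 1 given there also stands on Gstp1, Gstp2 and Ugt2b38, which have no p-value, so it may be a placeholder.

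The donors, partner enzymes and regulators of conjugation were examined in 7 lists with 56 tested genes, of which 2 were higher in LKO and 0 lower, beside 1.02% and 0.396% of all tested genes. Both are receptors that induce conjugating enzymes when a ligand binds. Nr1i2, the xenobiotic receptor PXR, rose from 70.2 ± 4.17 to 116 ± 12.4 CPM (log2 0.72 ± 0.10, adjusted p = 0.0134). Ahr, the receptor for dioxin and related compounds, rose from 78.7 ± 7.92 to 125 ± 20.2 CPM (log2 0.67 ± 0.13, adjusted p = 0.0372). With no sex term, without Fl/Fl 5 or without Fl/Fl 7 neither was past the threshold, and Ahr was also not past it without LKO 3, 4 or 13. The control means above leave out the male liver, where Nr1i2 stood at 103 CPM, 0.55 above the female controls on the log2 scale. That value lay within the LKO range of 98.9 to 128 CPM, so such a level was not confined to LKO. Ahr stood at 95.9 CPM there, above the female controls and below the lowest LKO value of 102 CPM.

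Receptor RNA and the RNA of genes known as receptor targets can be set side by side here. Ugt1a6a, a textbook Ahr target, had the smallest p of the members and did not pass, and Ugt1a1, which both receptors can induce, had a fitted difference of -0.0068. Both are Ugt1a genes with shared exons, and no list of receptor targets was drawn up. They are examples and do not show how targets moved as a set. Whether either receptor acted on the members was not tested. Among the other regulators, Hnf4a, a master factor of hepatocytes, gave log2 0.47 ± 0.11 (adjusted p = 0.0646) and Rxra, the partner of Nr1i2, 0.42 ± 0.11 (adjusted p = 0.0934). Nfe2l2, the factor of the antioxidant response, gave -0.20 ± 0.10 (adjusted p = 0.370).

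The supply genes gave 0 calls in each list. For UDP-glucuronic acid, Ugdh, the enzyme that makes it, gave log2 0.34 ± 0.17, and the nucleotide sugar transporters Slc35d2 and Slc35d1 gave -0.31 ± 0.094 and 0.24 ± 0.11. For sulfate and PAPS, the sulfate transporter Slc26a1 gave 0.28 ± 0.15, the PAPS transporter Slc35b3 -0.30 ± 0.11 and the synthase Papss2 0.069 ± 0.18. For glutathione, Gclc, which catalyses the limiting step of its synthesis, gave -0.15 ± 0.14. The glutathione-degrading enzyme Chac1 gave -0.77 ± 0.30 and the oxoprolinase Oplah 0.18 ± 0.084. Adjusted p-values of these 9 genes were 0.132 to 0.896.

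Of the other conjugating enzymes, including the microsomal glutathione transferases, none passed the test. Mgst1, the most abundant of the microsomal enzymes, measured 1012 ± 102 FPKM, a level close to that of Gstm1, and gave log2 0.0061 ± 0.12 with a 95% interval of -0.26 to 0.27. Mgst3 measured 13.9, 14.5 and 8.35 CPM in Fl/Fl 5, 7 and 9 and 18.6, 25.3, 16.4 and 15.2 CPM in LKO 3, 4, 12 and 13, with every LKO value above every Fl/Fl value (log2 0.62 ± 0.23, adjusted p = 0.237), and it passed as higher with a term for Arntl added after seeing the data (log2 0.81, adjusted p = 0.0297). The fitted log2 differences of the rest included Mgst2 -0.53 ± 0.50 (adjusted p = 0.650), the N-acetyltransferases Nat2 -0.49 ± 0.19 (adjusted p = 0.249) and Nat8 0.86 ± 0.40 (adjusted p = 0.321), and the glucuronidase Gusb 0.087 ± 0.084 (adjusted p = 0.664).

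Markers of periportal hepatocytes, those around the portal vein, did not overlap between the groups as a sum. The 8 periportal markers summed to 13102 to 16969 CPM in LKO and 10073 to 12272 CPM in female Fl/Fl. Pck1 and Ass1 were the largest parts of that sum. Past the threshold was 1 of 8 (Sds, log2 0.92 ± 0.11, adjusted p = 0.00881), beside 1.02% of all tested genes. Taken singly, Sds, Pck1, Hsd17b13 and Arg1 did not overlap, as held upward for 8.85% of all tested genes. Ass1, Gls2, Cyp2f2 (log2 0.015 ± 0.13) and Hal (log2 0.071 ± 0.16) overlapped. The 9 pericentral markers overlapped, at 9221 to 12366 and 8914 to 11229 CPM. Their part in the members' values was not tested.

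The largest differences among members lay between the male library and the 3 female Fl/Fl libraries. Gstp1, Gstp2, Ugt2b1 and Ugt2b38 were higher in the male library, 4 of 55 members, where 3.14% of all tested genes were higher. Sult3a1, Sult3a2, Ugt1a5, Gstt3, Ugt1a1 and Gstt1 were lower, 6 of 55, where 2.36% of all tested genes were lower. With 1 male library, assumed to vary like the others, the test compares that library with the female ones and not the sexes. The contrast shares its 3 female controls with the genotype comparison.

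Gstp1 (ENSMUSG00000060803, chromosome 19, 4035407 to 4037921) measured 192, 246 and 208 CPM in Fl/Fl 5, 7 and 9, 217, 180.1, 231 and 214 CPM in LKO 3, 4, 12 and 13, and 2675 CPM in the male library, which had 187596 of its reads (log2 3.64 ± 0.16, adjusted p = 9.36e-07). The 7 female livers lay close together, and the male value was 12.4-fold above the female controls. Gstp2, its neighbour on chromosome 19, measured 0.814 to 1.31 CPM in the female libraries and 12.1 CPM in the male one (log2 3.498 ± 0.26, adjusted p = 4.96e-05). Gstp2 had 0.454 reads per 100 reads of Gstp1 in the male library and 0.424 to 0.729 in the female ones, and 54.3% of its 50-base words also occur in another gene, mostly Gstp1. How many Gstp2 reads came from Gstp1 was not tested. Gstp3, the third gene of the row, was 7.00 CPM in the male library and 10.2 to 14.2 CPM in the female ones (log2 -0.66 ± 0.19, adjusted p = 0.0641).

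The promoters of these neighbours are shown because only the first and second were high in the male library. Each line gives the 250 bases before the RefSeq start (GRCm38.p6), 5′ to 3′, and capitals mark the aryl hydrocarbon receptor core GCGTG, the sole searched motif found in them.
Gstp1 chr19:4037913-4038162 (-): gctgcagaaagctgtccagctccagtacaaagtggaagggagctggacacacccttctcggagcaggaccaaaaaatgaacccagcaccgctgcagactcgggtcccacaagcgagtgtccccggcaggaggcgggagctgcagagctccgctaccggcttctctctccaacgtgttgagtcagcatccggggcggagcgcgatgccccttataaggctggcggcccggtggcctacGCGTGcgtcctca
Gstp2 chr19:4042222-4042471 (-): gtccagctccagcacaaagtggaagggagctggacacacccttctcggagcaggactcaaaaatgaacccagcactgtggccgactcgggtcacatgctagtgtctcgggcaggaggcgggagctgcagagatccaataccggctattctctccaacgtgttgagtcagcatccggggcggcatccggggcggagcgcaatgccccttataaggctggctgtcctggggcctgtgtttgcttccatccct
Gstp3 chr19:4059448-4059697 (-): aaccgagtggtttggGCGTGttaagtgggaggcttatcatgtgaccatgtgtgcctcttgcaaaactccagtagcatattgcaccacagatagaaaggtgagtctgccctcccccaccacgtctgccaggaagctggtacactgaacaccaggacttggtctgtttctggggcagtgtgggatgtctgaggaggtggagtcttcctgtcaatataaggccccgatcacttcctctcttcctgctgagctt
Gstp1 and Gstp2 were identical at 78.5% of aligned columns, with a longest shared run of 43 bases, and Gstp1 and Gstp3 at 50.7%, with a longest run of 8. Gstp2 holds none of the searched motifs. Gstp1 has GCGTG at 13 and Gstp3 at 235 bases before the start.

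Sult3a1, a female-predominant amine sulfotransferase, had the largest fall past the threshold in the male library. It measured 74.8, 39.1 and 54.1 CPM in Fl/Fl 5, 7 and 9, 62.3, 55.6, 41.4 and 75.9 CPM in LKO 3, 4, 12 and 13, and 0.984 CPM in the male library, 56.8-fold below the female controls (log2 -5.83 ± 0.60, adjusted p = 0.00375). Sult3a2 had 2 reads there and 48 to 119 in each female library, a level 4.51% of that in female Fl/Fl (exact Poisson interval of the male reads 0.547 to 16.3%, counting error only; fitted adjusted p = 0.0104). Ugt1a5 measured 49.1 to 80.5 CPM in the female libraries and 7.59 CPM in the male one (log2 -2.85 ± 0.28, adjusted p = 0.000681), and Ugt1a1 85.2 to 113 and 54.3 CPM (log2 -0.91 ± 0.17, adjusted p = 0.0134). For each of these genes the male value lay below all 7 female values.

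The theta-class genes Gstt3 (59.5 to 159 CPM in the female libraries, 20.96 CPM in the male one) and Gstt1 (226 to 334 and 135 CPM) were lower by 2.22 and 0.89 on the log2 scale. Ugt2b1 was higher (306 to 529 and 1125 CPM, log2 1.37 ± 0.24, adjusted p = 0.0132), as was Ugt2b38 (0.855 to 5.45 and 55.3 CPM, log2 4.27 ± 0.85, adjusted p = 0.0458). Sult2a2 differed by -3.92 and did not pass (adjusted p = 0.338), nor did Sult2a6, with 1 read in the male library and 8 to 135 in female Fl/Fl (adjusted p = 0.468). Among summed subfamilies Gstp was higher (log2 3.57 ± 0.16, adjusted p = 8.11e-07), and Gstt (log2 -0.999 ± 0.20, adjusted p = 0.0183), Sult3a (log2 -5.80 ± 0.60, adjusted p = 0.00374) and Ugt1a (log2 -0.79 ± 0.15, adjusted p = 0.0155) were lower.

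**Figure D5:**
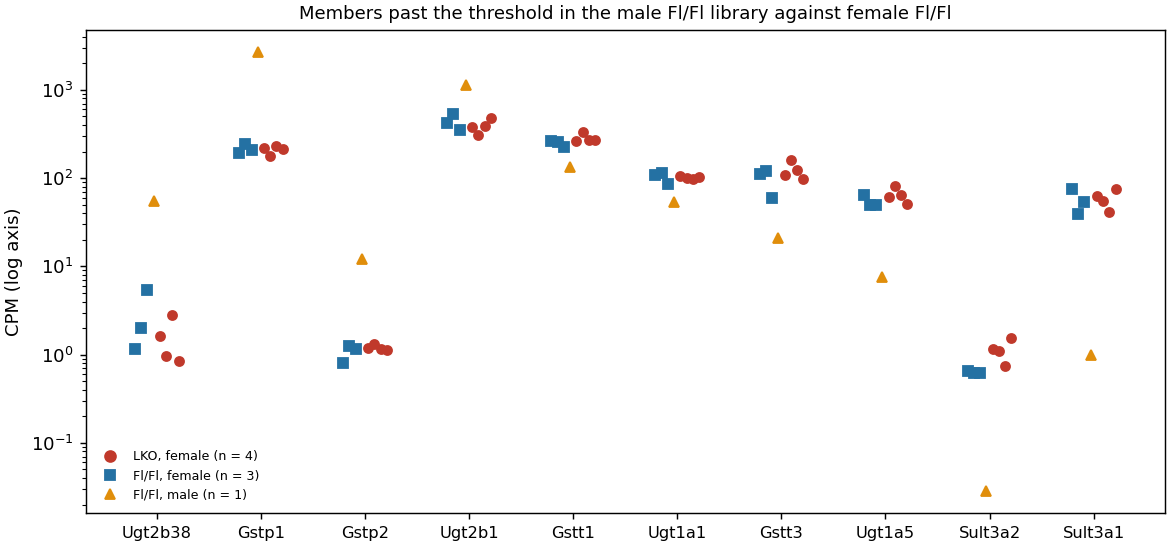
CPM (log axis) of the 10 members past the threshold in the male Fl/Fl library (triangles) beside female Fl/Fl (squares) and LKO (circles), ordered by fitted difference. For each gene the male point lies outside all 7 female points.

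Over all members, the male library was above all 7 female libraries in 9 of 55 and below them in 18, where the shares of all tested genes were 20.8% and 20.3%. By class it was above in 6 and below in 6 of 18 UDP-glucuronosyltransferases, above in 2 and below in 6 of 21 glutathione transferases, and above in 1 and below in 6 of 16 sulfotransferases. Gstp1, Gstp2, Sult3a1 and Ugt1a5 were past the threshold in each of 17 alternatives for this contrast. Of the others, Gstt1 was not past it in 3, Gstt3 in 8, Ugt2b38 in 9, and Sult3a2, Ugt1a1 and Ugt2b1 in 2 each; leaving out Fl/Fl 5 ended the calls of Gstt1, Gstt3, Ugt2b1 and Ugt2b38, and leaving out Fl/Fl 7 those of Gstt3 and Ugt2b38. The higher members numbered 2 without Fl/Fl 5, and the lower ones 11 without Fl/Fl 9, while leaving out both Fl/Fl 5 and 7 gave 3 lower members.

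The male liver differed from the female ones in other ways. All 9 acute phase genes were higher in it, with Saa1 at 932 CPM against 8.76, 5.42 and 8.68 CPM in Fl/Fl 5, 7 and 9, and albumin was 55809 CPM against 105929, 102109 and 109283 CPM. Of the sex-biased liver genes listed, 6 of 10 male-biased genes were higher and 6 of 11 female-biased genes lower in it. Papss2 (log2 -1.16 ± 0.29, adjusted p = 0.0488), Mgst2 (0 reads against 12 to 33 in female Fl/Fl, at least 6.11-fold lower over a floor of 3 reads in the library, adjusted p = 0.0390), Mgst3 (log2 -1.78 ± 0.40, adjusted p = 0.0385) and Nfe2l2 (log2 -0.70 ± 0.16, adjusted p = 0.0341) were also lower, and Nat8 (log2 3.74 ± 0.50, adjusted p = 0.00297), Hnf4a (log2 0.68 ± 0.16, adjusted p = 0.0356) and Rxra (log2 0.64 ± 0.16, adjusted p = 0.0426) higher. Sex and this state of the liver cannot be told apart in 1 animal.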

How the data were processed

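RNA-seq of 8 livers was analysed. Qiagen columns and a NEBNext kit were used, per the labels. Build mm10 and the tools STAR, fastp, HTSeq, featureCounts, edgeR, DESeq2 and DESeq are named in the submitters' processing notes, with neither version nor role. Strand setting, annotation release and the rule for reads that fit several genes are not given in the sources used here. One table was deposited. In it the authors give whole-number read counts, normalised signal values (counts divided by a size factor) and FPKM values per library, and their own log2 fold change, p-value and adjusted p of LKO over all Fl/Fl.

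Counts were fitted in R 4.3.3 with edgeR 4.0.16 on all 16420 genes kept by filterByExpr, scaled by TMM, with terms for genotype and sex, and tested by the quasi-likelihood F test (two-sided, Benjamini-Hochberg over all tested genes, threshold 0.05). Standard errors were derived from the log2 fold change and the F statistic, and intervals are 95%. The biological coefficient of variation was 20.4%. CPM use TMM-scaled library sizes and are given as mean ± SD. DESeq2 1.42.0 and limma 3.58.1 (voom, and trend on log2(FPKM + 1) of the deposited FPKM) were alternatives, beside other scalings, other filters, single replicates left out and an adjusted p of 0.10. A term for log2 CPM of Arntl was added after seeing the data.

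The members and gene lists were chosen with earlier results of these data known, so lists are described by counts and medians only. Named were the 5 members per class with the highest FPKM, the 3 with the smallest p, the 3 with the largest male difference among those of at least 1 CPM, up to 5 called genes or the 2 with the smallest p of each supply, enzyme and regulator list, and the 3 subfamily sums with the smallest p. The STAT5 letters were added after the values were seen. Shared sequence was computed on GENCODE M21 transcripts in words of 50 bases, and 56 of 60 members had the deposited position there. Whether the livers came from separate litters or were prepared on separate days is not in the labels, so a p-value here reflects only how these libraries vary. No 2 libraries were identical, and chi-square per degree of freedom was at least 35.1 within a group. The procedure was tested on simulated counts of 16420 genes, with changes of 1 or 2 on the log2 scale put in outside the rarest genes. For genotype 87% and 98% of these were recovered, and 6.09% of calls were false. For the male library 47% and 89% were recovered, and 8.11% of calls were false. Each simulated gene varied on its own, so states that move many genes of a library together were left out. These rates need not hold for the members.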

Additional observations from a re-analysis of the deposited data

Results flagged for a closer look

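Some libraries stood apart from their own group of 4 by Dixon's test, which chance passes in about 1 in 20 groups. It was applied to 58 groups of values and 7 passed, of which 4 were the male Fl/Fl library among the female ones. Of these 4 genes, Gstp1, Gstp2 and Ugt2b38 had been named for a large male difference, and Sult3a2 had passed in that contrast. They repeat that contrast, and the rate of 1 in 20 does not hold for genes picked by it.

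The male library stood apart for Gstp1 at 2675 CPM, for Gstp2 at 12.1 CPM and for Ugt2b38 at 55.3 CPM, all high, and for Sult3a2 at 0.0285 CPM, low. Among LKO libraries, LKO 4 stood apart for the steroid sulfotransferase Sult2a1 at 199 CPM, against 42.2, 38.8 and 36.5 CPM in LKO 3, 12 and 13. LKO 4 also stood apart for Gstt1, at 334 CPM against 263 to 273 CPM. LKO 3 stood apart for Gstz1, at 504 CPM against 618 to 636 CPM.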

How the results depend on the processing

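With libraries left out, the members called higher in LKO were 0 to 1 glutathione transferases and 0 of the other classes, and those called lower 0 to 1 UDP-glucuronosyltransferases and 0 of the others; every other setting gave 0 in each class, as did the subfamily sums. With 1 library left out the class medians ranged over 0.060 to 0.28 for glutathione transferases (lowest without Fl/Fl 9) and -0.055 to 0.056 for UDP-glucuronosyltransferases (highest without Fl/Fl 7). Without Fl/Fl 5 and 7 together they were 0.49 and 0.16. With libraries left out, the sulfotransferase median ranged over 0.29 to 0.73. Members higher in the male library ranged from 2 to 4 with libraries left out (2 without Fl/Fl 5) and were 2 with the Arntl term. Members lower there ranged from 3 to 11 (11 without Fl/Fl 9, 3 without Fl/Fl 5 and 7), and were 11 in DESeq2, 11 at an adjusted p of 0.10 and 3 with the Arntl term. Genes of the 7 supply, enzyme and regulator lists called higher ranged from 0 to 4 with libraries left out, against 2 as reported. They were 0 with no sex term, 4 with no filter, 4 in DESeq2, 4 at an adjusted p of 0.10 (Hnf4a and Rxra beside Nr1i2 and Ahr in these 3) and 1 in limma trend (Nr1i2). Those called lower ranged from 0 to 2 (Nat2 and Glyat without Fl/Fl 9, and Chac1 without Fl/Fl 5 and 7). The cause of these shifts was not tested.

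Fitted values of single genes changed sign in 21 pairs of gene and setting, none of them past the threshold in either fit. Genes such as Gstp1 and Ugt2a3 are counted in several settings. With 1 library left out at a time, Gstm1 ranged from -0.11 to 0.23, Gstp1 ranged from -0.11 to 0.068, Gsta3 ranged from -0.13 to 0.42, Gstz1 ranged from -0.10 to 0.10, Ugt2b36 ranged from -0.13 to 0.0060, Ugt2a3 ranged from -0.23 to 0.13, Gstp2 ranged from -0.0018 to 0.28, Sult3a1 ranged from -0.14 to 0.33 and Mgst2 ranged from -0.81 to 0.023. Without Fl/Fl 5 and 7, 5 values changed sign: Gstp1 (0.0088), Ugt2b36 (0.11), Ugt2b1 (0.12), Ugt2a3 (0.35) and Nat2 (0.012). With no sex term Gstp2 (-1.67) and Nat8 (-1.17) did, in limma voom Sult2a6 (-0.042), and with the Arntl term Ugt2a3 (0.016). No paired analysis was possible because the genotypes share no replicate number in the labels. Depth limits the rare members, since 3 reads are worth 0.0385 to 0.0428 CPM.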
